A study of Mus musculus with 6 samples.

Results

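The granins and the enzymes that process neuropeptides were followed in the ventromedial hypothalamus of mice with and without Sirt1 in SF1 neurons. The group was chosen by function and comprises 10 genes: the granins Chga, Chgb, Scg2 and Scg3, the chaperone gene Scg5, the convertases Pcsk1 and Pcsk2, the convertase inhibitor gene Pcsk1n, the carboxypeptidase Cpe and the amidating enzyme Pam. Every probe with 1 of these symbols in the platform annotation was taken. This gave 14 of the array's 45281 probes, for 9 of the 10 genes and of the 19057 genes that have a probe. No probe bore the symbol Pcsk2, so Pcsk2 is not analysed here. Of the 14 probes, 10 were above background on all 6 arrays and were tested, and the 4 others were left out of the test.

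All 6 samples were RNA pools of ventromedial hypothalamus from mice of 16 weeks on a mixed genetic background, homozygous for a loxP-flanked Sirt1 allele. The 3 control pools carried that allele alone (Sirt1loxP/loxP). The 3 SIRT1 deletion pools also carried Sf1-Cre (Sf1-Cre; Sirt1loxP/loxP), which expresses Cre under the control of the gene for SF1, Nr5a1, so that only cells with a history of SF1 expression lose Sirt1 and the other cells of the dissected tissue keep it. How many mice made up a pool is unstated in the labels, so each p-value speaks only of the variation among these 6 pools.

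Most neuropeptides are made as larger precursors that are packed into dense-core vesicles of the regulated secretory pathway. Granins are acidic proteins that aggregate with the precursors as the vesicles form, and are themselves cut into peptides. The convertases PC1/3 and PC2 cut at pairs of basic residues, carboxypeptidase E removes the basic residues left at the end, and PAM turns a terminal glycine into an amide. In the hypothalamus these steps yield, among others, the melanocortin, thyrotropin-releasing hormone and tachykinin peptides that act on feeding and energy balance.

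A sequence feature recurs in some of the promoters, and the stretches that hold it or a variant are shown. The motifs were chosen after these promoters had been seen, so the shares of all genes given beside them test nothing. The palindrome TGACGTCA, known as the cAMP response element, was searched on both strands of the 250 bases before the start in the RefSeq promoters (GRCm38.p6). It lay in 3 of the 9 members with a promoter entry, Chgb, Scg2 and Pcsk1, against 1.77% of 27025 genes. Chga held the variant TGACGTAA, which 0.525% of the genes held, and the granin gene Scg3 held neither. Below are the 120 bases just before the start of Chga (chr12:102554821-102554940, plus strand), Chgb (chr2:132781522-132781641, plus strand) and Scg2 (chr1:79440027-79440146, minus strand), and 30 bases around the element of Pcsk1 (chr13:75089768-75089797, plus strand), each from 5′ to 3′ with the element in capitals.
Chga: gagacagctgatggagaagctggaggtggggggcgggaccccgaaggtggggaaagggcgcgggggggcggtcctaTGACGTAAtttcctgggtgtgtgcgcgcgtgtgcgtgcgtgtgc
Chgb: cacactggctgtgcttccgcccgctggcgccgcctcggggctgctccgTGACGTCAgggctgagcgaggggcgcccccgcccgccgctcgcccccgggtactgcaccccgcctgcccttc
Scg2: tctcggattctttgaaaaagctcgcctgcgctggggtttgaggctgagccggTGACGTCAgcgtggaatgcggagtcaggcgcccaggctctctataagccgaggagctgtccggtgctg
Pcsk1: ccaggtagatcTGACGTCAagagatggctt
The element began 72 bases before the start in Chgb, 68 in Scg2 and 78 in Pcsk1, and the variant began 44 bases before the start in Chga. The shorter core TGACG, which the element and its variant both contain, was found in 7 of the 9 members (these 4 genes, Scg3, Scg5 and Pcsk2) and in 19.8% of all genes. The letters CAAGGTCA, a site known to be bound by SF1, were in 0 of the 9 windows and in 1.51% of all genes. The TATA box letters TATAAA were also in 0 of the 9 windows, and in 14.3% of all genes. These matches describe the letters of the windows and were not tested as binding sites.

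Across the arrays between 20053 and 20611 probes were detected, and arrays correlated with each other at 0.989 to 0.995 over the tested probes. All 10 marker genes listed for the ventromedial nucleus, Fezf1 and Adcyap1 among them, were above background on at least 3 arrays. The Sirt1 probe read 7.69 ± 0.11 in control and 7.65 ± 0.13 in deletion pools (log2 intensity, mean ± SD, n = 3 each), which is -2.32% (limma 95% interval -17.3% to 15.4%). The labels do not place this probe inside or outside the deleted part, so it does not check the deletion. Nr5a1, which marks the targeted neurons, was near background. Its tested probe (raw signal 152.1 to 168.1) was detected on all 6 arrays, and its other probe on 1, a deletion array. The tested probe had a log2 fold change of 0.45 (limma adjusted p = 0.470) with the deletion pools above the controls. Of the 16 tested probes of the marker list 7 were above 0 and 9 below. The groups did not overlap for 3 of them, against 14.0% of all tested probes. Besides Nr5a1 these were probes of Sox14 (-0.36, limma adjusted p = 0.457) and Slc17a6 (-0.17, limma adjusted p = 0.628), both with the deletion pools below the controls.

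No granin or processing enzyme passed the test. Of the 10 tested probes 0 reached a limma adjusted p under 0.05, where 0.0490% of all 20402 tested probes did. At an unadjusted p under 0.05 there were 0 members, against 8.48% of all tested probes (4.49% higher and 3.98% lower). All 10 log2 fold changes, given as SIRT1 deletion minus control, lay between -0.10 and 0.11. Their median was 0.07, against -0.0030 over all tested probes, and the median size without regard to sign was 0.08 against 0.10. After quantile normalisation the widest limits of the 95% intervals over the 10 probes were a fall of 1.27-fold and a rise of 1.29-fold. With each array scaled to its median the limits ran from -0.49 (a Chga probe) to 0.24 (Pam) on the log2 scale. Since smaller changes lie within these limits, equality is not shown. Fewer cells of a type and less RNA per cell cannot be told apart in such pools.

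The sign of these small differences depended on the scaling. With quantile normalisation 7 of the 10 probes were above 0, where 49.0% of all tested probes were, while with each array scaled to its median all 10 were below 0. Median scaling shifted all tested probes together, to a median of -0.12, and put 76.2% of them below 0. Relative to that shift 6 of the 10 member probes were higher and 4 lower, with a median of 0.03. Counts over all probes moved as well, from 10 calls (6 higher, 4 lower) to 19 (7 higher, 12 lower), but no member was among them. The values that follow are those after quantile normalisation unless the scaling is named.

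**Figure D1:**
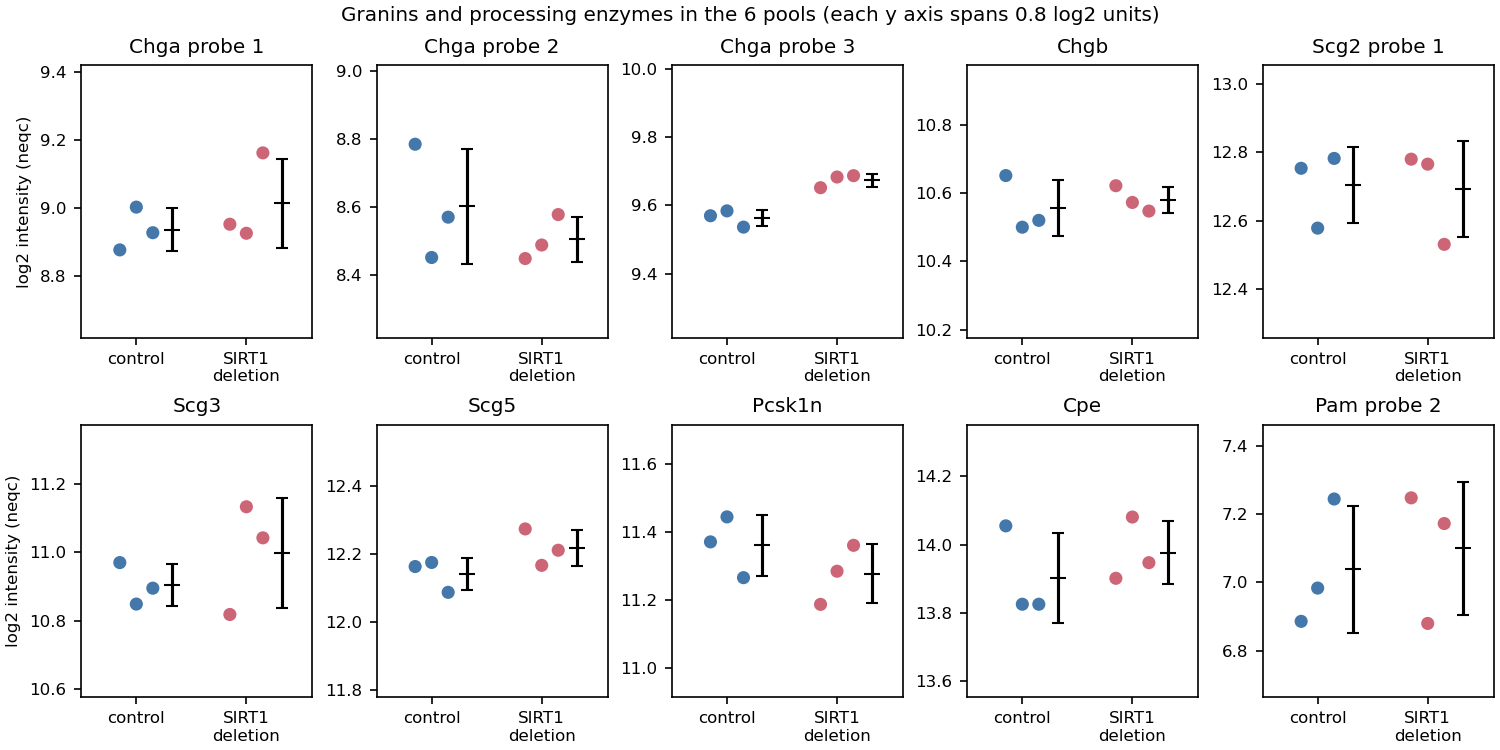
Log2 intensity of each tested probe (y axis, spanning 0.8 log2 units in every panel) in the 3 control (blue) and 3 SIRT1 deletion pools (red). Black bars give the mean and SD of each group. The groups overlap in 9 of the 10 panels, the exception being Chga probe 3.

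The chromogranins came first. Chga encodes chromogranin A, which drives granule formation and is the precursor of peptides such as catestatin. Its 3 probes, all assigned to the same RefSeq transcript, gave log2 fold changes of both signs. Probe 3 (ILMN_2814927) had log2 intensities of 9.57, 9.58 and 9.54 in the controls and 9.65, 9.68 and 9.69 in the deletion pools, listed here and below as replicates 1 to 3. All deletion pools were above all control pools, as was so for 7.15% of all tested probes, and the groups did not overlap in either direction for 14.0%. Its log2 fold change was 0.11 (95% interval -0.08 to 0.30, limma adjusted p = 0.713), and the exact permutation p was 0.1, the smallest that 3 against 3 pools can give. With median scaling it was -0.05.

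The other Chga probes overlapped between the groups. Probe 1 (ILMN_2716146) read 8.88, 9.00 and 8.93 in the controls and 8.95, 8.93 and 9.16 in the deletion pools, where SIRT1 deletion 3 was the highest of the 6. Probe 2 (ILMN_2723763) read 8.78, 8.45 and 8.57 in the controls and 8.45, 8.49 and 8.58 in the deletion pools, with control 1 above the rest. Their log2 fold changes were 0.08 (-0.15 to 0.30) and -0.10 (-0.34 to 0.15). The gap between probes 2 and 3 differed between the groups by -0.21 on the log2 scale, with an exact permutation p of 0.2, the lowest among the 3 pairs of Chga probes. Under median scaling probe 2 had -0.25 (-0.49 to -0.01, unadjusted p = 0.0462, limma adjusted p = 0.248), which is -0.13 relative to the median of all probes.

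Chgb encodes chromogranin B, also called secretogranin I, a granin of neuroendocrine vesicles. Its probe gave 10.65, 10.50 and 10.52 in the controls and 10.62, 10.57 and 10.55 in the deletion pools. The deletion pools lay within the range of the controls. The log2 fold change was 0.02, with a 95% interval from -0.18 to 0.23 that corresponds to -11.7% to 17.0%.

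Among the secretogranins, Scg2 encodes the precursor of secretoneurin, a neuropeptide. Its detected probe (ILMN_1237378) read 12.75, 12.58 and 12.78 in the controls and 12.78, 12.77 and 12.53 in the deletion pools. Each group had 1 pool below its others, control 2 and SIRT1 deletion 3. Between the groups the log2 fold change was -0.01 (-0.26 to 0.23), and its sign turned when control 1 or control 3 or SIRT1 deletion 3 was left out.

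Scg3 encodes secretogranin III, which binds chromogranin A and cholesterol-rich membrane and so helps to sort granins into vesicles. Its values were 10.97, 10.85 and 10.90 in the controls and 10.82, 11.13 and 11.04 in the deletion pools. SIRT1 deletion 1 was the lowest and SIRT1 deletion 2 the highest of all 6, so the deletion pools spanned the controls. Scg3 had a log2 fold change of 0.09 (-0.15 to 0.34).

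Scg5 and Pcsk1n encode the proteins that bind the convertases. Scg5 encodes 7B2, which accompanies PC2 on its way to the vesicle and is needed for PC2 to mature. It read 12.16, 12.18 and 12.09 in the controls and 12.27, 12.17 and 12.21 in the deletion pools, with SIRT1 deletion 1 the highest. SIRT1 deletion 2 lay among the controls. Scg5 had a log2 fold change of 0.08, and the 95% interval, from -0.12 to 0.27, ran from -8.09% to 20.8%.

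Pcsk1n encodes proSAAS, an inhibitor of PC1/3 that is also a precursor of peptides. Its probe read 11.37, 11.44 and 11.27 in the controls and 11.19, 11.29 and 11.36 in the deletion pools. The lowest pool was SIRT1 deletion 1, and the groups overlapped. Pcsk1n had a log2 fold change of -0.08 (-0.30 to 0.13). With median scaling it was -0.26 (-0.47 to -0.04), the largest difference among the members there, with an unadjusted p of 0.0257 and a limma adjusted p of 0.220, at a setting where 19.7% of all tested probes had an unadjusted p under 0.05. Relative to the median of all probes that value is -0.13.

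The enzymes that trim and modify the cut peptides followed. Cpe read 14.05, 13.82 and 13.82 in the controls and 13.90, 14.08 and 13.95 in the deletion pools. Control 1 was near the highest deletion pool while the other controls were lowest. The log2 fold change of Cpe was 0.07 (-0.16 to 0.31).

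Pam had 2 probes. The detected Pam probe (ILMN_2626294) read 6.89, 6.98 and 7.25 in the controls and 7.25, 6.88 and 7.17 in the deletion pools, so that each group covered nearly the same span. Its range over the 6 pools, 0.37, was the widest of the tested member probes, and the narrowest was 0.15, that of Chga probe 3. The log2 fold change of Pam was 0.06 (-0.24 to 0.37), and its sign turned without control 1 and without SIRT1 deletion 1. Over all 10 probes the limma adjusted p lay between 0.713 and 0.985, and except for Chga probe 3 the exact permutation p lay between 0.2 and 0.9.

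**Figure D2:**
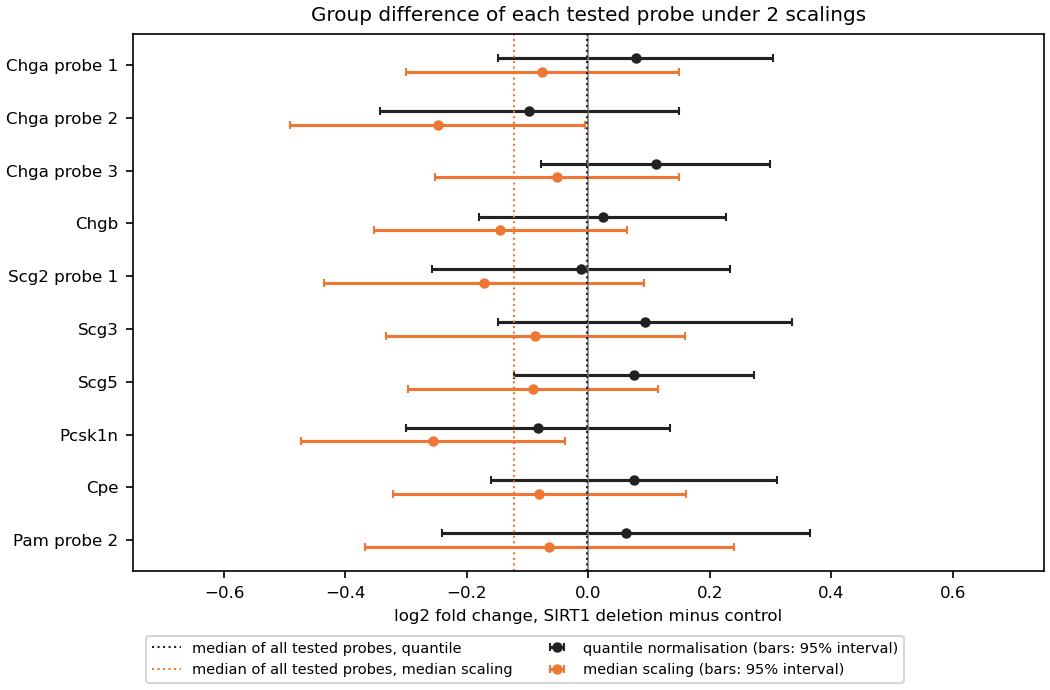
Log2 fold change of each tested probe (x axis, SIRT1 deletion minus control) with its 95% limma interval, after quantile normalisation (black) and after median scaling (orange). Dotted lines mark the median of all tested probes under each scaling, and the members lie around them. Under median scaling all 10 are below 0, as the median of all tested probes is (-0.12).

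The extremes were spread over the pools, and every pool held the highest value for 1 or 2 of the 10 probes. SIRT1 deletion 1 held the lowest value for 3 of the 10 probes (Chga probe 2, Scg3 and Pcsk1n) and the highest for 2 (Scg5 and Pam). The median deviation of the 10 probes from their own means ran from -0.08 in control 2 to 0.04 in SIRT1 deletion 3. The 3 probes below 0 after quantile normalisation belonged to a granin with other probes above 0 (Chga), to Scg2 and to Pcsk1n. The raw signal was lower in the deletion than in the control group for all 10 probes, in arrays whose raw median was also lower (140.4 to 142.1 against 145.5 to 149.4). The median SD within groups was 0.11 on the log2 scale for the members and 0.14 for all tested probes.

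The convertase gene Pcsk1, whose product PC1/3 makes the first cuts in many precursors, could not be compared. Its probe 2 (ILMN_2680894) was above background on 1 of the 6 arrays, SIRT1 deletion 2, with a raw signal of 148.9 and a detection p of 0.0224. In control 2 the same probe also read 148.9, which on that array was not above background. Its probe 1 (ILMN_2576158) was not above background on any array, the nearest being SIRT1 deletion 3 with a detection p of 0.0502. Raw signals of the Pcsk1 probes lay between 130.1 and 148.9, so no fold is given.

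The second probes of Scg2 (ILMN_2492442) and Pam (ILMN_1236965) were likewise not above background on any array, with detection p from 0.326 to 0.742 and from 0.0855 to 0.330. For both genes another probe was detected on all 6 arrays. Both probes of Snap25, a gene of the synaptic fusion machinery that neurons use throughout, were also undetected on all arrays, so a probe at background does not show that its gene is silent.

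**Figure D3:**
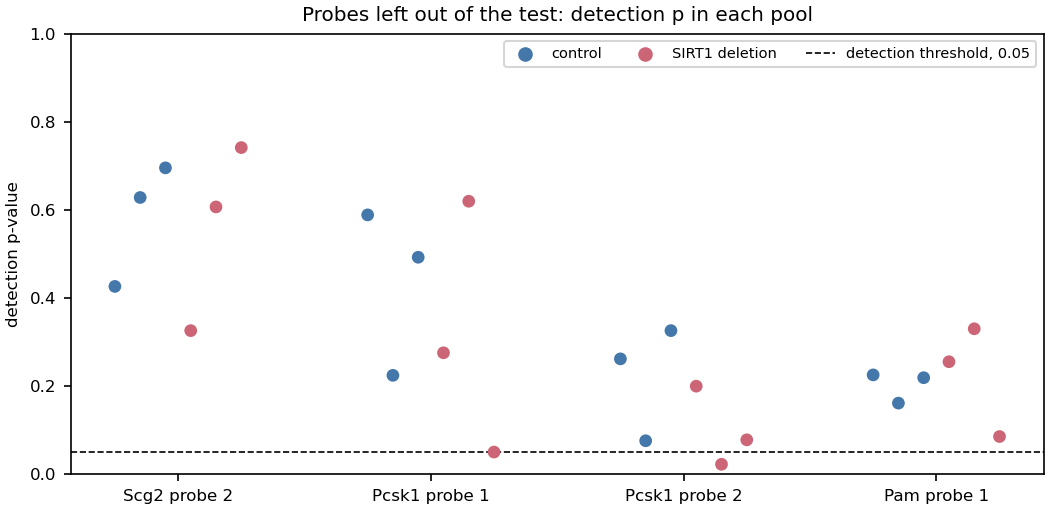
Detection p-value (y axis) of the 4 probes left out of the test, in the 3 control (blue) and 3 SIRT1 deletion pools (red). Only Pcsk1 probe 2 in SIRT1 deletion 2 lies under the dashed threshold of 0.05.

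The rest of the pathway was taken from 6 lists. Of their 109 genes 103 had a probe and 83 were tested, by 129 probes. Of these probes 0 reached a limma adjusted p under 0.05, 66 were above 0 and 63 below. At an unadjusted p under 0.05 there were 9 higher and 1 lower, which is 7.75% against 8.48% of all tested probes. That lean turned around with the scaling: with median scaling 2 were higher and 22 lower (18.6% against 19.7% of all tested probes). The median log2 fold change was 0.0080 after quantile normalisation and -0.13 after median scaling, where that of all tested probes was -0.12.

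Other secretory cargo (Vgf, Cartpt, Bdnf and Igf1) was below 0 in 7 of 10 tested probes, with a median of -0.12, and in 9 of 10 with median scaling. Vgf encodes a granin-related precursor of peptides that act on energy balance. Its probe ILMN_1232310 read 7.63, 7.66 and 7.25 in the controls and 7.55, 6.97 and 6.83 in the deletion pools, where SIRT1 deletion 2 and 3 were below the controls and SIRT1 deletion 1 was among them. The log2 fold change was -0.40 (-0.83 to 0.04, limma adjusted p = 0.600). With median scaling that probe had -0.53 (-0.93 to -0.12, limma adjusted p = 0.203), where the median of all tested probes was -0.12. The other Vgf probe read 11.61, 11.69 and 11.70 in the controls and 11.54, 11.87 and 11.73 in the deletion pools and gave 0.05 (-0.19 to 0.29), of the other sign. Cartpt, a precursor of appetite-related peptides, had -0.12 and -0.06 by its 2 probes, and the first had -0.30 (-0.58 to -0.02) with median scaling. The growth factor gene Bdnf had -0.13 by the probe of lowest p and -0.13, -0.14 and 0.02 by its 3 other tested probes. Igf1, also a growth factor gene, had -0.16 by a probe detected on 4 arrays and 0.02 by a probe detected on 5.

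Other convertases and proteases gave 8 probes above and 5 below 0, with a median of 0.0080. Furin, a convertase of the Golgi, had 0.14 (-0.11 to 0.39), and Pcsk7, a convertase of the same family, had 0.08. Pcsk4, best known as a convertase of germ cells, had -0.23 by the probe of lowest p and 0.02, 0.01 and 0.14 by its 3 other tested probes. With median scaling the Pcsk4 probe of lowest p had -0.34 (-0.66 to -0.03). Ctsb, a lysosomal protease, had -0.23 by a probe detected on 4 arrays and 0.0027 by a probe detected on all. None of the 13 probes reached an unadjusted p under 0.05, and with median scaling 1 did (7.69% against 19.7% of all tested probes).

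The trimming and modifying enzymes beyond Cpe and Pam were split evenly, 6 probes above and 6 below 0. Nrd1, which encodes the endopeptidase nardilysin that cuts at basic residues, had -0.12 (-0.34 to 0.10), and Rnpep, aminopeptidase B, had -0.09. With median scaling Nrd1 had -0.30 (-0.52 to -0.08) and Rnpep -0.26 (-0.46 to -0.05), where the median of all tested probes was -0.12. Qpct, which forms the terminal pyroglutamate of thyrotropin-releasing hormone and other peptides, had 0.11. Atp7a, the copper transporter that supplies PAM with its metal, had 0.15 (-0.30 to 0.60).

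Machinery of dense-core vesicles held 7 of the 10 probes with an unadjusted p under 0.05, 6 of them higher. These were among 53 tested probes of 30 genes (13.2%, against 8.48% of all tested probes), so a gene can count more than once. With median scaling 1 was higher and 7 were lower (15.1% against 19.7%). With only the probe of highest mean intensity kept per gene, 4 of the 83 pathway probes had such a p, against 1254 of all 14221 probes kept. The probes of lowest p of Syt7, Atp6ap2, Eipr1 and Ica1, given next, were not among those kept. The probe of lowest p belonged to Syt7, a calcium sensor of vesicle release. It read 5.07, 4.59 and 4.85 in the controls and 5.32, 5.29 and 5.35 in the deletion pools. All deletion pools were above the controls, as was so for 7.15% of all tested probes. Its log2 fold change was 0.49 (0.20 to 0.77, limma adjusted p = 0.435), and 0.45 (0.17 to 0.74) with median scaling. But it was detected on 4 arrays only, those of 1 control and 3 deletion pools. It thus entered the test only through the deletion pools, where it is high, so its p and its place in the counts above support nothing. The Syt7 probe detected on all 6 arrays had 0.13. Atp6ap2, an accessory protein of the proton pump that acidifies vesicles, had 0.55 (0.15 to 0.95, limma adjusted p = 0.508), with 0.37, 0.18 and -0.02 by its other probes, and 0.38 (unadjusted p = 0.0503, limma adjusted p = 0.254) with median scaling. Eipr1, which takes part in sorting cargo into dense-core vesicles, had 0.31 by the probe of lowest p (0.18 with median scaling) and values from -0.10 to 0.26 by its 4 other probes. Ica1, an autoantigen of islet and neuroendocrine vesicles, had -0.31 by the probe of lowest p (-0.38 with median scaling) and -0.0086 by its other detected probe.

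Peptidases that degrade neuropeptides outside the cell gave 8 probes above and 7 below 0. An unadjusted p under 0.05 was reached by 0 of the 15, against 8.48% of all tested probes. With median scaling 5 reached it, all lower (33.3%, against 19.7% of all tested probes). Among all tested probes there, 3713 of the 4017 that reached it were lower. Prcp, a carboxypeptidase that inactivates the melanocortin peptide alpha-MSH, had -0.18 (-0.38 to 0.02). Thop1 and Ace, an endopeptidase and the angiotensin-converting enzyme, had -0.19 and -0.21. With median scaling Prcp had -0.32 (-0.54 to -0.10), Thop1 -0.33 (-0.58 to -0.09) and Ace -0.34 (-0.65 to -0.03). All deletion pools were below all controls for Prcp and Thop1. Ece1, the endothelin-converting enzyme, had 0.12 with all deletion pools above the controls, and -0.03 with median scaling. These 3 of the 15 probes had groups that did not overlap, as was so for 14.0% of all tested probes.

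The precursors on which the members act were 12 above and 14 below 0 (median -0.0046). With median scaling 7 were above and 19 below 0. Trh, the precursor of thyrotropin-releasing hormone, read 11.29, 11.46 and 11.29 in the controls and 11.64, 11.49 and 11.69 in the deletion pools. The groups did not overlap, as was so for 3 of the 26 probes of this list and for 14.0% of all tested probes. The log2 fold change was 0.26 (0.04 to 0.49, limma adjusted p = 0.554). With median scaling Trh had 0.09 (-0.14 to 0.32). Nmb, the precursor of neuromedin B, had 0.22 (0.02 to 0.43, limma adjusted p = 0.572), and 0.14 (-0.07 to 0.35) with median scaling. Npw, the precursor of neuropeptide W, was detected in all 3 deletion pools and in 0 of the 3 control pools, and was at least 1.32-fold higher (means of 4.61 and 5.27, limma adjusted p = 0.218). That bound sets the deletion mean against the mean, per control array, of the higher of the probe's own value and the lowest detected value. It holds for these settings only, since the log2 difference of 0.66 became 0.31 with an offset of 50, 0.23 in the authors' table and 0.18 without background correction. Npw entered the test through the deletion pools alone, where it is high, so its p and its place in the counts above support nothing. Tac1, the precursor of substance P and neurokinin A, had -0.18 (-0.42 to 0.06), and -0.35 (-0.61 to -0.10) with median scaling.

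**Figure D4:**
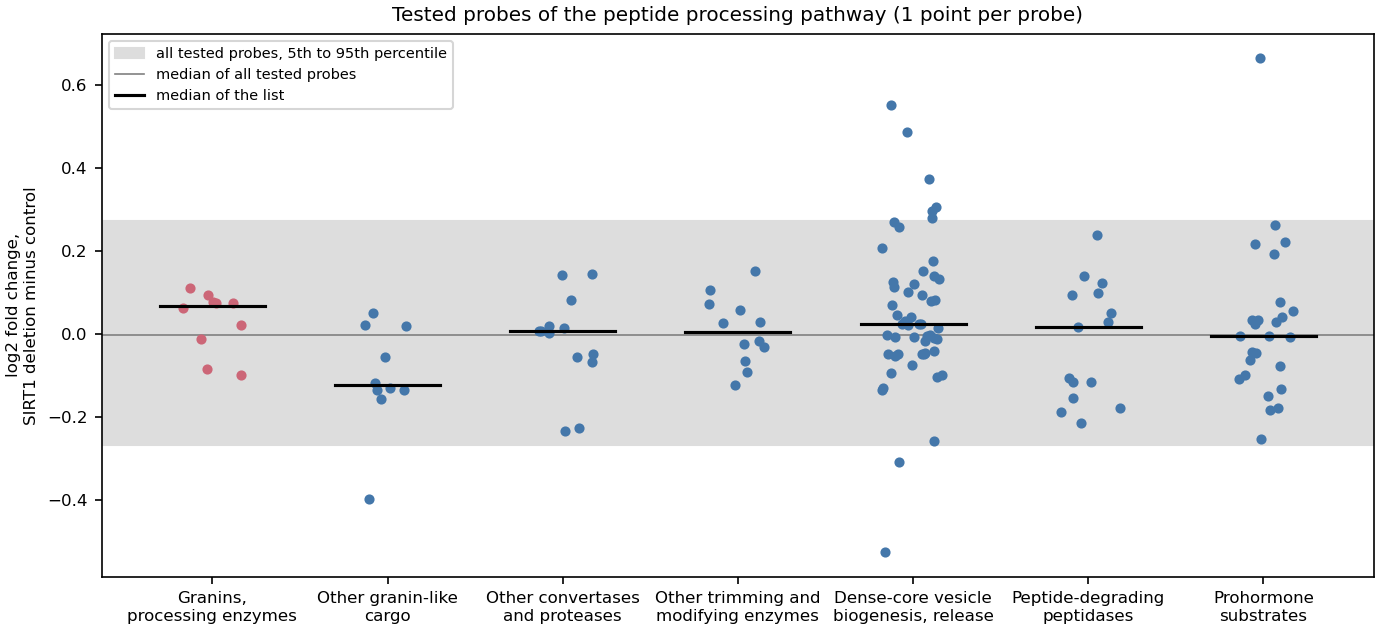
Log2 fold change (y axis, SIRT1 deletion minus control) of each tested probe of the members (red) and of 6 pathway lists (blue), with the median of each list as a black bar. Grey shading spans the 5th to the 95th percentile of all tested probes (-0.27 to 0.27), and all 10 member probes lie within it.

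Neurons, other cells that make granins and tissue that a dissection could hold were followed by marker lists. For neurons 5 of 8 genes were tested, and their summed level (normalised linear intensity) ran from 27339 to 29159 in control and from 26862 to 28814 in deletion pools. Bright genes weigh most in such a sum. By probe, 6 of the 9 tested were below 0 (median -0.06), against 51% of all tested probes. The groups did not overlap for 1 of them (Stmn2, -0.14, deletion pools lower), against 14.0% of all tested probes. Snap25 and Nefl, both neuronal, were undetected on all arrays. Of 9 pancreatic islet markers 1 was tested (Slc30a8), and Ins2, Gcg, Iapp, Ppy, Pdx1, Neurod1 and G6pc2 were undetected on all arrays. Of 9 anterior pituitary markers 1 was tested, Gh, with levels from 27.7 to 37.5 in control and from 10.2 to 26.7 in deletion pools, and the 7 others with a probe were undetected. The Gh probe was near background (raw signal 141.4 to 176.5) and not detected in SIRT1 deletion 3. Its log2 fold change was -0.54 (limma adjusted p = 0.507), and 14.0% of all tested probes also had groups without overlap. Exocrine pancreas markers, of which 9 of 11 genes were tested, summed to 977 to 1150 in control and 276 to 484 in deletion pools. In that list all 10 tested probes were lower, against 51% of all tested probes, while Prss2 was undetected. The genes of this list were chosen with earlier results of these data known, so that count supports nothing. The 3 that passed were probes of Zg16, Try4 and Try5, where 0.0490% of all tested probes passed. These 3 were detected in all control and in 0 deletion pools. They entered the test through the controls alone, so their p-values support nothing. Of 5 adrenal medulla markers 1 was tested (Th, -0.01). Meninges markers, also chosen with earlier results known, were below 0 in 10 of 11 tested probes (median -0.37). Their sums overlapped, at 1601 to 4071 in control and 1286 to 2650 in deletion pools. The part of the exocrine pancreas, meninges and Gh levels in the values of the members was not tested.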

How the data were processed

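Gene expression in 6 RNA pools of ventromedial hypothalamus was read on 6 Illumina bead arrays. Per the file headers, the deposited table gives 45281 probes a mean bead intensity (linear scale) and a detection p-value on every array. The intensities were neither background-subtracted nor scaled by the authors, as the lowest value per array (104.0 to 111.6) and the differing medians show. A second table of intensity values deposited by the authors, with equal quartiles in all 6 columns, served as an alternative. No source used here names the scanner software.

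In R 4.3.3 with limma 3.58.1, neqc was run on the intensities: normexp background correction from the detection p-values, addition of 16, quantile normalisation and log2. This added offset compresses changes of dim probes. Each of the 20402 probes that reached detection (p under 0.05) on 3 or more arrays was a feature of its own in lmFit and eBayes, with Benjamini-Hochberg adjustment across all of them. Intervals are 95% limma intervals. The exact permutation test is two-sided. The number of arrays limits the precision.

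Genes were named from the platform annotation, in which 34885 probes have 1 gene symbol, 18 have several and 10378 have none. Promoter sequences came from RefSeq (GRCm38.p6). The motifs were chosen after the sequences had been seen. The members and all lists were chosen with earlier results of these data known. From each pathway list the 4 genes of lowest p are named, along with Sirt1, Nr5a1 and every member. Alternatives covered background correction, offset, scaling, probe filter, probe choice, variance prior, array weights, replicate block, threshold and each pool left out. The procedure was tested on simulated data. Figures were drawn with Python 3.11.15 and matplotlib 3.10.9.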

Additional observations from a re-analysis of the deposited data

How the results depend on the processing

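No tested member probe and no pathway probe was called under any of the 18 alternatives (lowest limma adjusted p 0.220 for members, with median scaling, and 0.126 for pathway probes, without SIRT1 deletion 1). The median log2 fold change of the members was -0.0892 with median scaling and between 0.0248 and 0.0591 with a pool left out. With median scaling the sign turned for Chga probe 1 (-0.0756) and probe 3 (-0.0515), Chgb (-0.145), Scg3 (-0.0871), Scg5 (-0.0913), Cpe (-0.0808) and Pam (-0.0645), and for Furin (-0.0195), Pcsk7 (-0.0622), Qpct (-0.0583) and Ece1 (-0.0325), where the median of all tested probes was -0.12. Of the pathway probes with an unadjusted p under 0.05, 9 were higher and 1 lower, against 2 higher and 22 lower with median scaling. With 1 probe per gene 4 of 83 pathway probes had such a p, against 1254 of all 14221 probes kept. Leaving out pools gave ranges that cross 0 for Scg2 (-0.0772 to 0.0697), Pam (-0.0138 to 0.172), Chgb (-0.00511 to 0.0697), Qpct (-0.0582 to 0.216) and Atp7a (-0.0873 to 0.277). Over all probes the 10 calls became 16 with normexp without detection p-values (8 higher, 8 lower), 16 with an offset of 50 (7 higher, 9 lower), 19 with median scaling, 2 when every array had to show a detection p under 0.01, 29 with an intensity trend and robust prior (12 higher, 17 lower) and 17 at a threshold of 0.10. With a pool left out they ranged from 3, without SIRT1 deletion 1, to 9, and were 5 without control 2. The cause was not tested. With the replicate number as a block 8 probes and 0 members were called. Pools with the same number did not deviate together (correlations -0.0779, -0.0566 and -0.0400), and the other combinations ran from -0.0136 to 0.0624. With 3 pools per group this cannot tell whether the numbers pair the pools. Signal near background limits Pcsk1 and the second probes of Scg2 and Pam.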
